A study of Mus musculus with 15 samples.

Results

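MicroRNA levels were compared between day 14 and day 9 in cells that were being turned into dopaminergic neurons with morphogens. The comparison used 6 of the 15 arrays of the series, chosen by their labels as the 3 treated replicates of each day. Of 1122 mouse miRNAs on the array, 307 were tested, namely those that every replicate of some group detected above background. The cells were epiblast stem cells (EpiSC), a pluripotent cell type taken from the early mouse embryo, and they came from Pitx3-GFP mice, in which a fluorescent protein reports Pitx3, a transcription factor of midbrain dopaminergic neurons. Differentiation ran to day 14, and treated cells received the morphogens SHH and FGF8 from day 5. The other groups, used here for reference, were cells at day 5 before the morphogens and control cells grown without morphogens to day 9 and day 14, each with 3 arrays. The labels give no sort of the cells, and the values are taken as those of the culture. Fewer cells of a type and less RNA per cell cannot be told apart in such bulk samples. The labels do not say that replicates came from separate cultures, so the p-values measure the spread between these samples, which may be technical.

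MicroRNAs are short RNAs that bind messenger RNAs, mainly through the seed at bases 2 to 8, and lower their translation and stability. In development, members of the let-7 family accumulate as cells leave the pluripotent and progenitor states, and their maturation is held back in stem cells by the protein LIN28. The miR-17-92 cluster and its paralogs promote proliferation, and the miR-302 cluster marks pluripotent cells. miR-9, miR-124 and miR-137 are brain miRNAs that act as progenitors stop dividing and become neurons.

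Levels are given as log2 of the background-subtracted Cy3 intensity scaled to the 75th percentile of the 354 probes that all 15 arrays detected, so 0 is the level of that percentile. Values were held at a floor of -4.30, the median over arrays of the lowest signal above background on each array. Lower signals were set to the floor, also where an array detected them, and values at the floor have no order. On the 6 treated arrays this percentile was 217 to 315 intensity units, 271 to 326 mouse miRNAs were above background, and 0 spots were saturated. Replicates correlated across miRNAs at 0.997 to 0.998 on day 9 and 0.995 to 0.998 on day 14, and arrays of different days at 0.927 to 0.942. All treated arrays lay on slide 1 apart from day 14 replicate 3, which lay on slide 2 with the controls and had lower spike-in signals (log10 labelling control 2.79 against 2.98 to 3.06, hybridisation control 4.15 against 4.40 to 4.41). In the deposited value table the column of day 14 replicate 2 repeats that of replicate 1, with 86.0% of probes equal within 0.1%. The scanner tables of these 2 arrays were distinct, with 0.302% equal, and they were used for every level below.

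The mature sequences that carry the main changes are given here with the seed in capitals, from RefSeq (GRCm38.p6), which held a sequence for 228 of the 307 miRNAs tested. The let-7 family shares the seed GAGGUAG, and its members rose from day 9 to day 14. Some of them differ at a single base, counted from the 5′ end: let-7a and let-7c at A19G, and let-7c and let-7b at A17G. Probes for such near-identical miRNAs may share signal, so members of this family are not independent measurements.
let-7b-5p: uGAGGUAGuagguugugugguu
let-7c-5p: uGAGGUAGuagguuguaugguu
let-7a-5p: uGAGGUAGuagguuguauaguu
let-7i-5p: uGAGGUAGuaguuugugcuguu
let-7d-5p: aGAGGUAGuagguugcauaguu
miR-98-5p: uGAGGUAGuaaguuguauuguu

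The miR-99/100 family has the seed ACCCGUA, and its hairpins lie next to those of let-7 and miR-125 in several places of the genome. miR-99a and miR-100 differ at a single base, given as A16U from miR-100 to miR-99a.
miR-99a-5p: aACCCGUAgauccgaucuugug
miR-100-5p: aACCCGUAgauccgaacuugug
miR-125b-5p: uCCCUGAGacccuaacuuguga

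Both main seed families of the miR-17-92 cluster and its paralogs fell. The first has the seed AAAGUGC and the second the seed AUUGCAC, which miR-367 of the pluripotency cluster on chromosome 3 shares.
miR-17-5p: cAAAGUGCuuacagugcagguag
miR-20a-5p: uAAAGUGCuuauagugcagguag
miR-20b-5p: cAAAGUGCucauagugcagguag
miR-92a-3p: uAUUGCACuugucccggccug
miR-363-3p: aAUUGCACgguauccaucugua
miR-367-3p: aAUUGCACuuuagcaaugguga

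Among neuronal miRNAs, miR-137 and both arms of miR-9 rose, whereas miR-132 and miR-212, which share a hairpin cluster on chromosome 11 and the seed AACAGUC, fell.
miR-137-3p: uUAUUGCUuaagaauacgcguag
miR-9-5p: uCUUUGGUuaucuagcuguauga
miR-9-3p: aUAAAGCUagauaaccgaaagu
miR-132-3p: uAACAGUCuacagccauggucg
miR-212-3p: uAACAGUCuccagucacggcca
miR-29b-3p: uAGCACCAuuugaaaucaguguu

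Between day 9 and day 14 of treatment, let-7, miR-99/100, miR-125 and most neuronal miRNAs rose, and most of the miR-17-92 family fell, as did miR-302d-3p and miR-367-3p of the miR-302 cluster. In the fit of all 5 groups with limma, 205 of the 307 miRNAs changed (66.8%) at an adjusted p below 0.05 after Benjamini-Hochberg correction. Of these, 109 rose (35.5%) and 96 fell (31.3%). Over 2-fold changes were called for 55 miRNAs (17.9%), 25 of them higher and 30 lower. The 3 arrays of day 14 lay entirely above those of day 9 for 121 miRNAs (39.4%) and entirely below for 112 (36.5%), so the days did not overlap for 233 (75.9%). With so many calls, a list or family stands apart only where its share in a single direction is far from these figures. Scaling each array to its median in place of the 75th percentile moved the split to 86 higher of 207 called (41.5%), with a shift of the median of all miRNAs to -0.14, and the scanner software's total gene signal gave 87 higher of 207 (42.0%) with a median of -0.18. Under both scalings the medians of let-7, miR-99/100 with miR-125, neuronal and miR-17-92 miRNAs kept their sign.

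**Figure D1:**
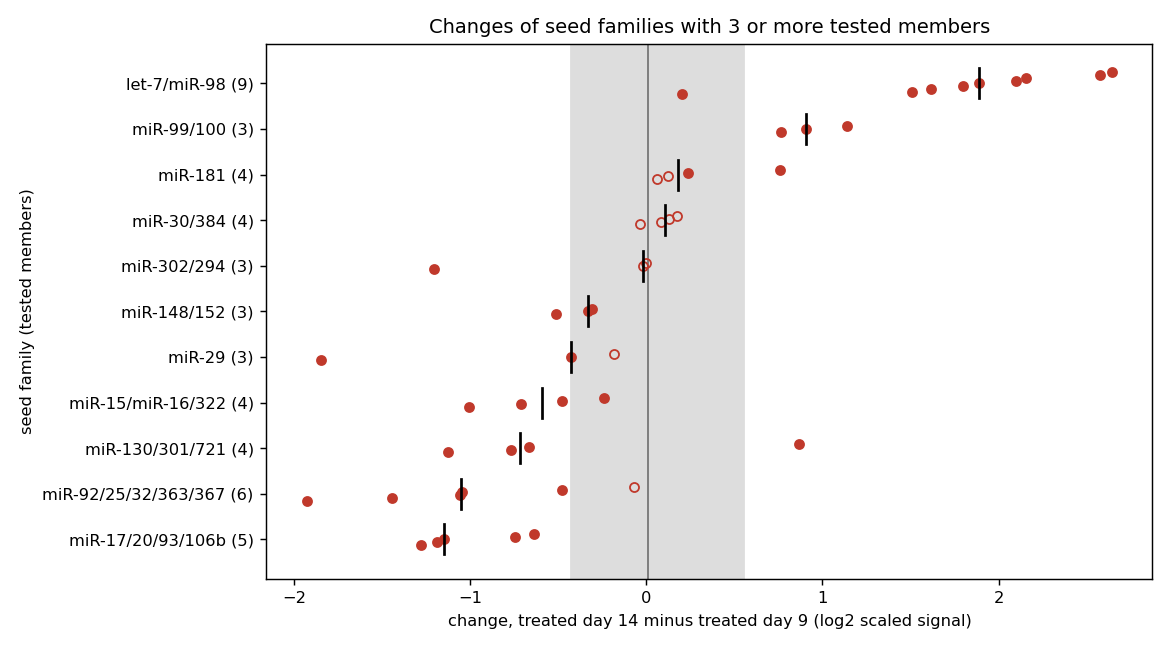
Change from day 9 to day 14 in treated cells (x axis, log2 scaled signal) for the 11 seed families with 3 or more tested members (y axis, number of tested members in brackets). Each point is a miRNA, filled where its adjusted p was below 0.05; black bars are family medians, the grey line and band are the median and the interquartile range of all 307 miRNAs tested. The let-7 family lies highest, with a median of 1.89, and the miR-17 and miR-92 families lowest, with medians of -1.15 and -1.05.

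All 9 let-7 family members tested rose, where 35.5% of all miRNAs rose, with a median of 1.89 against 0.01 over all miRNAs. let-7b-5p stood at -3.31, -3.34 and -3.55 on the day 9 arrays and at -0.96, -0.67 and -0.63 on the day 14 arrays. These groups did not overlap, and the day 14 mean was 6.25-fold the day 9 mean (log2 change 2.64 ± 0.11, SE, n = 3 arrays a day, limma adjusted p = 4.2e-10). let-7c-5p went from -0.79, -0.72 and -0.82 to 1.63, 1.86 and 1.92, a change of 2.58 ± 0.11 (SE). Across the family the step was smaller for let-7i-5p (2.16), let-7a-5p (2.10), let-7f-5p (1.89), let-7e-5p (1.80), let-7g-5p (1.62) and let-7d-5p (1.51), and each of these was above its day 9 arrays on all 3 day 14 arrays. miR-98-5p was below background on every day 9 array and above it on 2 of the 3 day 14 arrays. Its change of 0.20 (limma adjusted p = 0.045), at least 1.02-fold, lay near the floor. The call was lost without any single day 9 replicate (adjusted p = 0.0898, 0.0917 and 0.0889 without replicate 1, 2 and 3) and without day 14 replicate 1 (0.105) or replicate 2 (0.185). The other 8 members passed the test under every alternative run for them.

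The rise of let-7 continued an earlier one. let-7c-5p had been at -3.88, -4.06 and -4.21 on day 5, close to the floor, and rose by 3.27 to treated day 9 (limma adjusted p = 1.6e-11), and let-7a-5p rose by 3.22 over the same days. let-7b-5p, let-7i-5p, let-7e-5p, let-7g-5p and let-7d-5p were below background on all day 5 arrays. Changes from day 5 to day 9 and from day 9 to day 14 share the day 9 arrays, and 59.0% of miRNAs were called between day 5 and treated day 9.

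**Figure D2:**
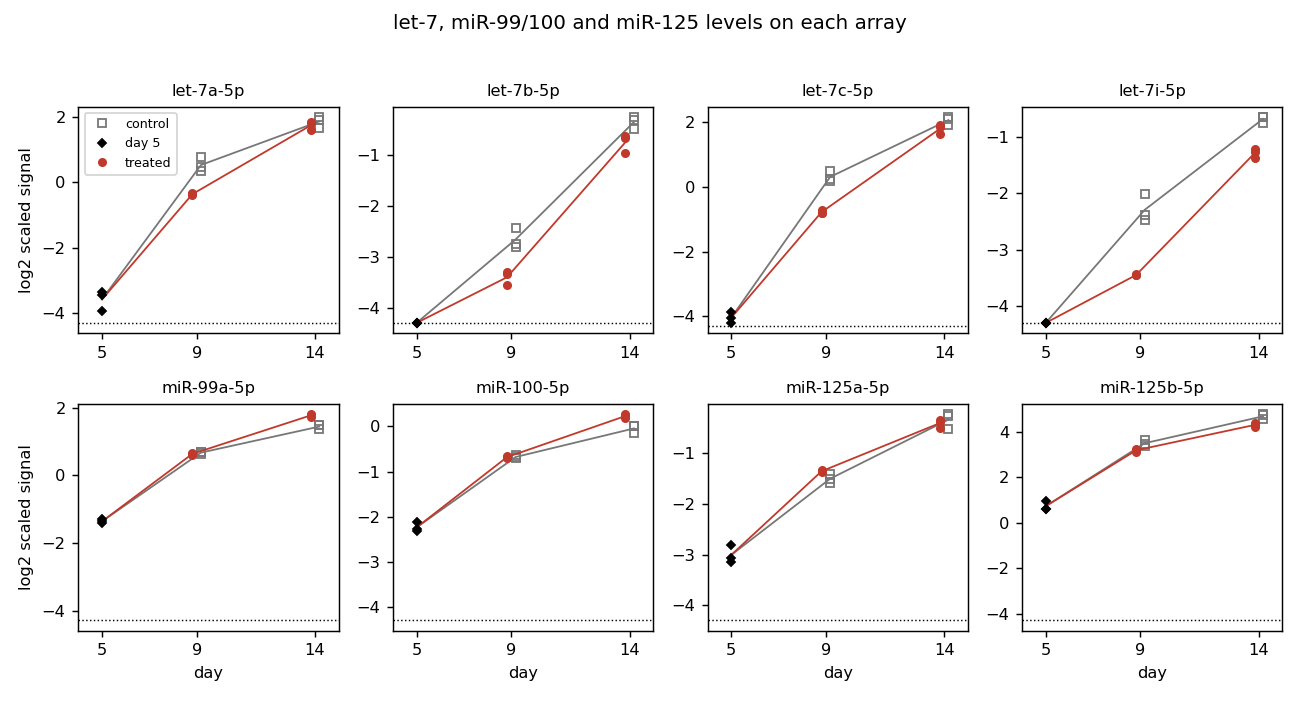
Levels of let-7, miR-99/100 and miR-125 miRNAs (y axes, log2 scaled signal, with a scale for each panel) at day 5, 9 and 14 (x axes). Each point is an array (black diamonds day 5, red circles treated, open grey squares control), lines join group means, and the dotted line is the floor of -4.30. In treated cells let-7c-5p climbs from a mean of -4.05 at day 5 to -0.78 at day 9 and 1.80 at day 14.

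All 5 members of the miR-99/100 and miR-125 families rose, where 35.5% of all miRNAs rose, with a median change of 0.95. miR-125b-5p, which is abundant in neural tissue, went from 3.10, 3.24 and 3.21 to 4.21, 4.31 and 4.37, a change of 1.11 ± 0.11 (SE, limma adjusted p = 6.6e-07). miR-99a-5p went from 0.60, 0.67 and 0.65 to 1.73, 1.79 and 1.81, so its arrays differed little within a day (SD 0.04 on each day) and much between days (1.14 ± 0.06, SE). miR-100-5p rose by 0.91, miR-125a-5p by 0.95 and miR-99b-5p by 0.77. Hairpins of let-7e and miR-125a lie within 528 bases of each other on chromosome 17 (chr17:17830352-17830879, GRCm38.p6, plus strand), and all 3 of their tested miRNAs rose, the third being miR-125a-3p at 0.65. The hairpins of let-7a-1, let-7f-1 and let-7d lie within 2261 bases on chromosome 13 (chr13:48536012-48538272, minus strand), although let-7f also has a hairpin on the X chromosome. The array also names another let-7a hairpin, let-7a-2, which the RefSeq match did not place. The signals of let-7a and let-7f therefore need not come from this cluster alone.

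Of 22 neuronal miRNAs tested, 14 rose and 3 fell, with a median of 0.49 against 0.01 over all miRNAs. Over all miRNAs 35.5% rose and 31.3% fell. The median was 0.39 with the 6 members that were below background on all arrays of a day set at their bound. The count of risers depended on dim members: it was 6 with the normexp background correction and 6 with a floor 4 times higher, where the median was 0.00. Among the 3 arrays of each day, miR-137-3p was below background throughout day 9 and at -1.46, -1.19 and -1.48 on day 14. That is at least a 6.67-fold increase (fitted change 2.92, limma adjusted p = 5.7e-10), and miR-137 had the largest increase of all miRNAs tested. miR-598-3p, a brain miRNA, was likewise below background on day 9 and at -2.81, -2.64 and -2.88 on day 14, at least 2.53-fold higher. Its call was lost with normexp (change 0.27, adjusted p = 0.073) and with the raised floor, under which both days lie. miR-551b-3p also emerged by day 14, at least 2.10-fold higher, and its call was lost with normexp as well (0.22, adjusted p = 0.107).

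The brighter neuronal miRNAs rose by up to 1.29. miR-9-5p stood at 2.05, 2.12 and 2.02 on day 9 and at 3.05, 3.21 and 2.91 on day 14, a change of 0.99 ± 0.10 (SE, limma adjusted p = 1.4e-06). The other arm of the same hairpins, miR-9-3p, went from 0.02, -0.06 and -0.11 to 1.11, 1.54 and 1.07, a change of 1.29 ± 0.13 (SE). miR-124-3p, which is the most neuron-restricted of the brain miRNAs, went from 1.31, 1.34 and 1.34 to 2.17, 2.28 and 2.35 and so rose by 0.93 ± 0.07 (SE). No day 14 array of these 3 miRNAs overlapped with day 9.

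miR-218-5p, which is enriched in motor neurons and also found in midbrain neurons, rose by 0.73 from -0.52, -0.40 and -0.55 to 0.38, 0.19 and 0.15. miR-7a-5p, a regulator of alpha-synuclein, rose by 0.59 from -0.78, -0.79 and -0.93 to -0.26, -0.05 and -0.43. Its paralog miR-7b-5p rose by 0.92 from levels near the floor, a call that was lost with normexp (0.0951, adjusted p = 0.556) and with the raised floor. miR-128-3p changed by 0.25 (adjusted p = 0.017). With median scaling the change was 0.03 (adjusted p = 0.831), and its adjusted p was 0.051 without day 9 replicate 1, 0.055 without day 9 replicate 3 and 0.058 without day 14 replicate 2. miR-138-5p and miR-129-1-3p, both below background on all day 9 arrays, were at least 1.31-fold and 1.41-fold higher at day 14. Those calls did not hold with the raised floor or with normexp, and with normexp the changes were -0.00866 and -0.0213. For miR-138-5p the call was also lost with outlier spots kept (0.54, limma adjusted p = 0.467) and with the deposited value table (0.44, adjusted p = 0.621).

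miR-129-5p (0.16, limma adjusted p = 0.12) and miR-129-2-3p (-0.01, adjusted p = 0.98) did not pass the test. miR-129-5p did pass with total gene signal scaling (0.47, adjusted p = 0.0139) and in a fit of the 6 treated arrays alone (adjusted p = 0.0397). miR-153-3p (0.09) and miR-124-5p (0.01) did not pass either, and miR-383-5p was below background on all 6 arrays. Detection of miR-129-5p and miR-124-5p did differ: both were below background on all day 9 arrays and above it on all 3 day 14 arrays. miR-133b-3p, a muscle miRNA that has been linked to midbrain dopaminergic neurons, was below background on all 15 arrays.

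The 3 neuronal miRNAs that fell were miR-132-3p, miR-212-3p and miR-149-5p. miR-132-3p, which is induced by neuronal activity through CREB, went from -1.61, -1.69 and -1.65 to -3.0, -2.81 and -2.78, a change of -1.21 ± 0.12 (SE, limma adjusted p = 1.3e-06). miR-212-3p of the same cluster went from -0.93, -1.0 and -0.88 to -1.78, -1.73 and -2.83. Its fall of 1.17 was pulled by day 14 replicate 3, the array on the other slide, and the change without that replicate was -0.82 (adjusted p = 0.003). Both miRNAs were lower on all day 14 arrays than on any day 9 array.

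**Figure D3:**
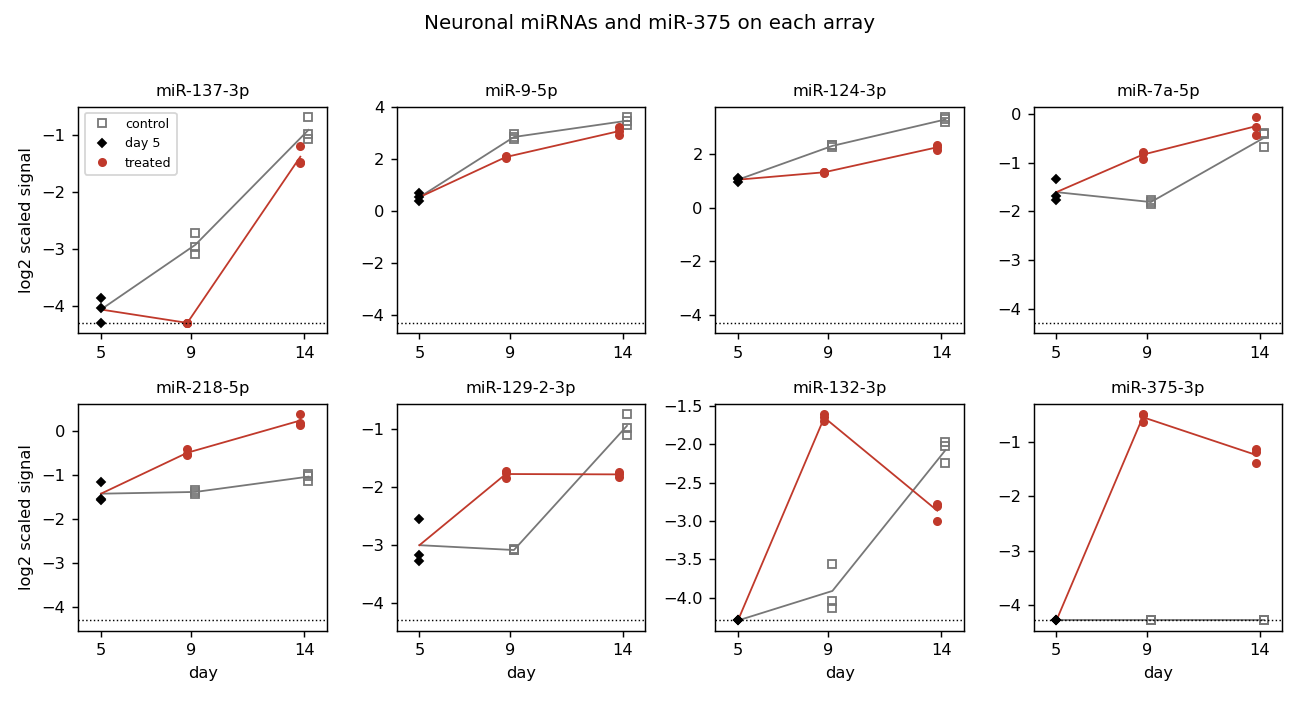
Levels of 7 neuronal miRNAs and of miR-375-3p (y axes, log2 scaled signal, with a scale for each panel) at day 5, 9 and 14 (x axes). Each point is an array (black diamonds day 5, red circles treated, open grey squares control), lines join group means, and the dotted line is the floor. In treated cells miR-137-3p is at the floor on day 9 and near -1.4 on day 14, and miR-132-3p falls from -1.65 to -2.86 in treated cells while it climbs from -3.91 to -2.08 in controls.

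The remaining miRNAs among the 12 largest increases were miR-135a-2-3p and miR-3099-3p. miR-135a-2-3p, the minor arm of a hairpin on chromosome 10, went from -3.79, -3.55 and -4.03 to -2.42, -2.35 and -2.36, a change of 1.41 ± 0.12 (SE) whose call was lost with the raised floor. The major arm miR-135a-5p, which targets Wnt pathway genes in midbrain progenitors, rose by 0.68 from -0.24, -0.16 and -0.30 to 0.53, 0.70 and 0.12. miR-3099-3p rose by 1.34 from values near the floor, and with normexp its change was 0.27 (adjusted p = 0.14).

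Of 16 tested miRNAs of the miR-17-92 cluster and its paralogs, 14 fell and 0 rose, with a median of -1.13. In the same comparison 31.3% of all miRNAs fell. miR-92a-3p, the most distal member of the cluster, went from 2.06, 1.93 and 2.16 to 0.61, 0.54 and 0.66, a change of -1.44 ± 0.08 (SE, limma adjusted p = 5.1e-09). miR-18a-5p went from 0.10, 0.12 and 0.17 to -1.47, -1.36 and -1.53, and miR-19a-3p from -0.22, -0.09 and -0.09 to -1.63, -1.40 and -1.68. The changes of these 2 miRNAs were -1.58 and -1.43, and in neither did the days overlap.

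The decline covered all of its genomic clusters. The hairpins from Mir17 to Mir92-1 span 836 bases on chromosome 14 (chr14:115043671-115044506, GRCm38.p6, plus strand), and 8 of the 9 miRNAs tested from them fell. Among these 8, miR-20a-3p (-0.42) was below background on all 3 day 14 arrays. Its call was lost with the 75th percentile over all mouse probes, median scaling and quantile normalization. It was also lost with normexp and the mean of probes (limma adjusted p from 0.0531 to 0.350 over these alternatives). On the X chromosome (chrX:52741693-52742413, minus strand) 4 of 6 fell, and among them was miR-363-3p with the largest decrease of all miRNAs tested. miR-363-3p stood at -2.40, -2.40 and -2.3 on day 9 and at the floor on all 3 day 14 arrays, where it was above background on 1, so its change of -1.93 ± 0.07 (SE) is limited by the floor, and with the floor 4 times higher both days lay at it. miR-20b-5p of that cluster went from 1.37, 1.41 and 1.47 to 0.06, 0.21 and 0.14 and fell by 1.28. On chromosome 5 (chr5:138165321-138165818, minus strand) all 4 tested miRNAs of the miR-106b-25 cluster fell, between -0.64 for miR-106b-5p and -1.22 for miR-106b-3p, whose days both lay at the raised floor. miR-92a-3p and miR-19b-3p have hairpins on both chromosome 14 and the X chromosome and count for both.

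Grouped by seed, all 5 miRNAs with AAAGUGC fell (miR-17-5p by 1.19, miR-20a-5p by 1.15, miR-93-5p by 0.75, and miR-20b-5p and miR-106b-5p as above). Members of this seed family differ from each other at as few as 2 bases, so their probes may share signal. Of 6 with AUUGCAC, 5 fell, including miR-25-3p by 1.05 and miR-32-5p, which was at least 1.39-fold lower and below background on day 14. miR-92b-3p, encoded apart from the clusters on chromosome 3, stood at -2.21, -2.48 and -2.27 on day 9 and at -2.35, -2.35 and -2.47 on day 14, a change of -0.07 (adjusted p = 0.72). The miRNAs with the seed AGCAGCA, which restrain the cell cycle, fell in 4 of 4 cases: miR-15b-5p by 1.01, miR-16-5p by 0.71, miR-15a-5p by 0.48 and miR-322-5p by 0.24. The call of miR-322-5p was lost without day 14 replicate 3 (change -0.19, adjusted p = 0.13). With the seed AGUGCAA, miR-130b-3p fell by 1.13, miR-130a-3p by 0.77 and miR-301a-3p by 0.67, whereas miR-721 rose by 0.87. None of the 4 tested miRNAs with the miR-30 seed GUAAACA passed the test, with changes of -0.03 to 0.17.

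**Figure D4:**
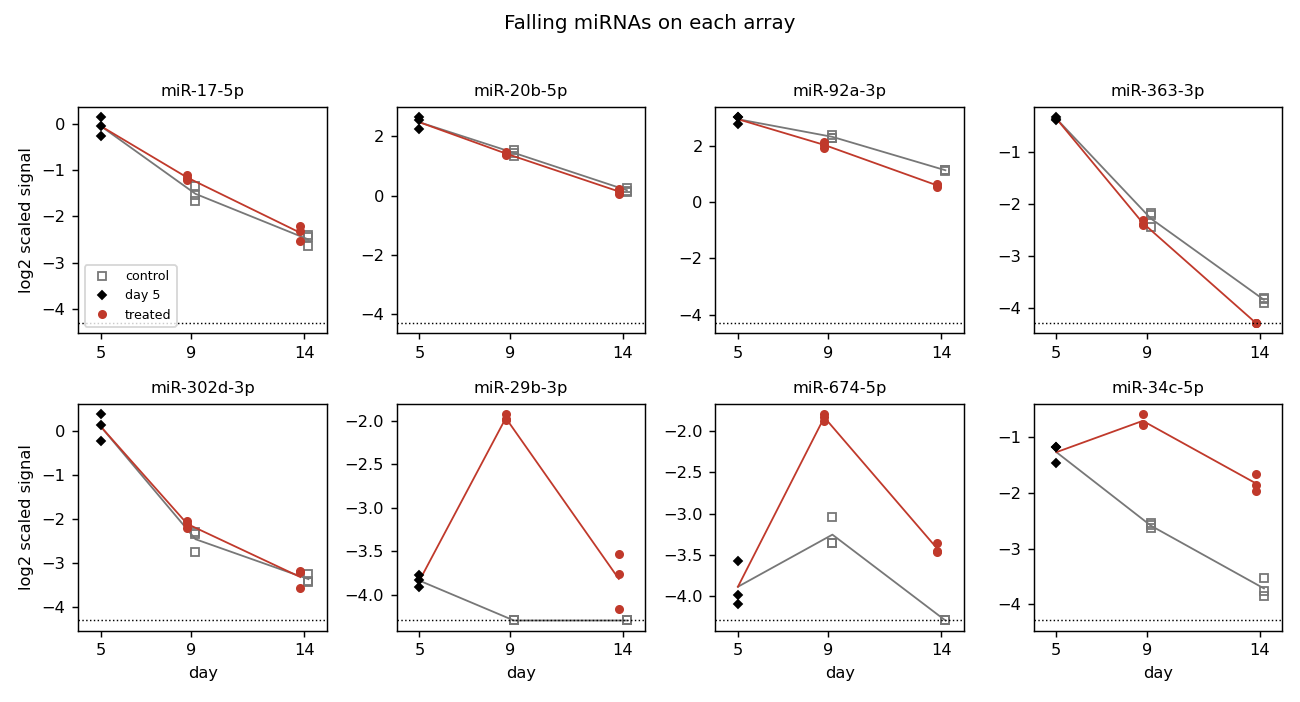
Levels of 8 miRNAs that fell between day 9 and day 14 of treatment (y axes, log2 scaled signal, with a scale for each panel) at day 5, 9 and 14 (x axes). Each point is an array (black diamonds day 5, red circles treated, open grey squares control), lines join group means, and the dotted line is the floor. miR-92a-3p and miR-20b-5p fall at every step from day 5, and miR-29b-3p peaks in treated cells at day 9 with a mean of -1.97.

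Pluripotency miRNAs were few and dim in treated cells. The miR-290 and miR-302 clusters have 24 probed miRNAs, of which 10 were detected on some array of the 15 and 7 on at least 1 treated array. Of 7 tested, 3 fell and 0 rose, and with the floor 4 times higher 0 fell. Over all miRNAs 31.3% fell, and so few members do not set the list apart from that share. miR-302d-3p, at 0.14, 0.38 and -0.23 on day 5, stood at -2.20, -2.03 and -2.10 on day 9 and at -3.21, -3.17 and -3.56 on day 14. This change was -1.20 ± 0.16 (SE, limma adjusted p = 1.2e-05), and -0.188 (adjusted p = 0.215) with the raised floor. miR-367-3p, from the same cluster (chr3:127545228-127545807, plus strand), fell by 1.06, and both its days lay at the raised floor. miR-302a-3p was below background on day 14 and at least 1.22-fold lower. Its adjusted p was 0.042 with all arrays and between 0.054 (without day 9 replicate 1) and 0.13 (without day 9 replicate 3) when any of the 6 treated arrays was left out. miR-294-3p of the miR-290 cluster was above background on 1 day 9 array and on no day 14 array, and it did not pass the test (-0.02, adjusted p = 0.88).

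A list of 11 miRNAs that earlier results of these data showed to be raised by the morphogens was chosen on the treated day 9 arrays being high. Its direction over the following days is therefore not independent evidence, and its counts are a description: 10 fell and 0 rose, with a median of -1.12. miR-29b-3p, which represses collagen and other matrix genes, went from -1.99, -2.0 and -1.93 to -3.53, -3.76 and -4.16, a change of -1.85 ± 0.11 (SE). miR-29a-3p, from the same hairpin cluster as a copy of miR-29b, stayed at -1.61, -1.74 and -1.85 after -1.54, -1.57 and -1.56 (change -0.18, adjusted p = 0.087). miR-29c-3p fell by 0.43 (normexp -0.30, adjusted p = 0.055). Both arms of miR-674 fell: miR-674-5p from -1.80, -1.87 and -1.83 to -3.36, -3.46 and -3.45 (-1.59) and miR-674-3p from -0.69, -0.69 and -0.55 to -1.90, -1.94 and -1.88 (-1.26).

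Both miR-34 products named here, miR-34c-5p and its partner miR-34b-5p, come from a single transcript that p53 activates and that multiciliated cells express strongly. miR-34c-5p went from -0.77, -0.75 and -0.59 to -1.66, -1.96 and -1.86 (-1.12 ± 0.11, SE), and the partner miR-34b-5p fell by 1.1. miR-375-3p, known from pancreatic islets and pituitary and linked to endocrine and sensory lineages, had been below background on day 5. It stood at -0.48, -0.49 and -0.62 on day 9 and at -1.18, -1.13 and -1.38 on day 14, a change of -0.70 ± 0.07 (SE, limma adjusted p = 8.9e-07). miR-27a-3p fell by 0.71 and miR-676-3p by 0.87. On chromosome 8 the hairpins of miR-23a, miR-27a and miR-24-2 lie within 404 bases (chr8:84208518-84208921, plus strand), and miR-23a-3p fell by 0.29 (normexp -0.25, adjusted p = 0.111) while miR-24-3p did not pass (-0.15, adjusted p = 0.11). In the paralogous group miR-23b-3p rose by 0.46, although this call was lost with quantile normalization (0.23, adjusted p = 0.0894), normexp (0.26, adjusted p = 0.0976) and total gene signal (0.23, adjusted p = 0.164).

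The other miRNAs among the 12 largest decreases were miR-1949, miR-335-3p, miR-5097 and miR-130b-5p. miR-335-3p, which is encoded within the imprinted gene Mest, went from -3.0, -2.97 and -2.87 to the floor, being above background on 1 of 3 day 14 arrays (change -1.34), and the call was lost with the raised floor. Its partner arm miR-335-5p went from 0.42, 0.44 and 0.43 to -0.43, -0.28 and -0.95 (-0.99 ± 0.14, SE). miR-1949 went from -0.75, -0.72 and -0.56 to -2.13, -2.07 and -2.13 (-1.43), and miR-130b-5p from -2.23, -2.21 and -2.0 to -3.42, -3.43 and -3.55 (-1.32). miR-5097 fell by 1.33 from 2.82, 2.73 and 3.06 to 1.72, 1.61 and 1.29, with a wider SE of 0.23.

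Neural progenitor miRNAs split. Of 13 tested, 3 rose and 6 fell, with a median of -0.24 against 0.01 over all miRNAs. Over all miRNAs 35.5% rose and 31.3% fell, and so short a list is not set apart from these shares. miR-25-3p and miR-106b-5p are also counted in the miR-17-92 list. The risers were miR-135a-5p (0.68), miR-181a-5p (0.76) and miR-181c-5p, whose call at 0.24 was lost with 5 of the alternatives (the 75th percentile over all mouse probes, median scaling, quantile normalization, normexp and total gene signal, with adjusted p from 0.0772 to 0.968). miR-181a-5p, which sets signalling thresholds in T cells and is found in developing neurons, went from -1.0, -0.89 and -0.88 to -0.24, -0.03 and -0.22. The fallers were miR-130b-3p, miR-25-3p, miR-335-5p, miR-301a-3p, miR-106b-5p and miR-210-3p, the last a hypoxia-induced miRNA at -0.31, whose call was lost with the 75th percentile over all mouse probes (-0.26, adjusted p = 0.119).

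A list of miRNAs of the miR-297, miR-466, miR-467 and miR-669 families, many of which lie in the Sfmbt2 gene, holds near-identical sequences whose probes may share signal. The 5 tested members that RefSeq matched lie on other chromosomes, so the list is not a single cluster. Of 31 tested, 10 fell and 0 rose, with a median of -0.23, and the share that fell is near the 31.3% over all miRNAs. The largest of these changes was -0.71 for miR-466b-3p, and 8 fell without day 14 replicate 3, where the median was -0.10. With normexp 5 fell and with the raised floor 3. Of a list of 28 miRNAs of the imprinted Dlk1-Dio3 cluster on chromosome 12, 5 were above background on a treated array. The list does not hold the whole cluster: miR-3072-5p, whose hairpin was grouped with those of miR-494 and miR-376a, is not in it and rose by 0.40. miR-370-3p rose by 0.90, from -1.70, -1.99 and -1.92 to -0.93, -0.80 and -1.19, and miR-494-3p by 0.33, a call that did not hold with median scaling (0.12, adjusted p = 0.23). miR-487b-3p fell by 0.45, but the limma adjusted p was 0.051 without day 9 replicate 1 and 0.074 without day 14 replicate 3. Its call was also lost with outlier spots kept (adjusted p = 0.863), the deposited value table (0.875), normexp (0.150) and no filter (0.102).

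Markers of other cell types were mostly below background. The lists for endothelium and blood (9 miRNAs), striated muscle (7), epithelium (7) and the Hox clusters of hindbrain and spinal cord (5) had no member above background on any of the 15 arrays. None of 3 sensory lineage miRNAs was above background on a treated array. Of the glial list, miR-219-5p, which drives oligodendrocyte maturation, went from 2.29, 2.21 and 2.29 to 1.5, 1.36 and 1.13 and fell by 0.93 ± 0.10 (SE), and miR-338-3p changed by -0.22 (adjusted p = 0.063). Of the mesenchyme and smooth muscle list 4 of 11 were above background. miR-21-5p fell by 0.68 from 0.51, 0.59 and 0.69 to -0.06, -0.02 and -0.16, and miR-199a-3p changed by -0.12 (adjusted p = 0.27). Of the endoderm and endocrine list, only miR-375-3p was above background on treated arrays. The part of such cells in the changes of the other lists was not tested.

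Of 36 hairpins with both arms tested, 12 had both arms called in the same direction and 2 in opposite directions, and the difference between arms was called in 17 (47.2%). Both arms were above background on all 6 treated arrays in 23 hairpins, and 10 of these were called. In the others the floor limits an arm. miR-149 showed the largest difference. Its 5p arm went from -2.46, -2.53 and -2.35 to -3.34, -3.47 and -3.41 (-0.96), and its 3p arm from -1.24, -1.39 and -1.27 to -0.47, -0.50 and -0.49 (0.82). The difference of the changes was -1.77 (limma adjusted p = 3.4e-08), although both days of the 5p arm lay at the raised floor. The other named differences were -1.50 for miR-18a, whose 3p arm was below background on all treated arrays, 1.23 for miR-652 and 1.22 for miR-3096b. In miR-3096b the 5p arm rose by 0.48 and the 3p arm fell by 0.74.

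Between day 9 and day 14 the miRNAs richest in G and C rose more often than the others. Of 62 miRNAs with over 60% G and C in their mature sequence, 33 rose and 9 fell, where 35.5% of all miRNAs rose and 31.3% fell. Their median was 0.35, whereas the 3 classes of lower GC content had medians of -0.06 to -0.10. From day 5 to treated day 9, which shares the day 9 arrays, the order was the other way. The medians then were 0.41 (up to 40%), 0.36 (over 40 to 50%), 0.01 (over 50 to 60%) and -0.15 (over 60%). The GC content correlated weakly with the change over 228 miRNAs (Pearson r 0.15, Spearman rho 0.19), as a description across miRNAs that share arrays. The GC content is 45.5% for let-7b-5p and 40.9% for let-7c-5p, the most raised let-7 members. In control cells the median of the GC-rich class from day 9 to day 14 was 0.24. The 4 viral miRNA probes that all 15 arrays detected changed by -0.05 to 1.08 from day 9 to day 14 in treated cells. Rises of such size were thus also seen on probes not made for mouse miRNAs. The part of base composition in the results was not tested, nor was that of signal unrelated to the intended miRNA.

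The question whether these changes belong to the treatment was addressed by setting them against the same days in control cells, which share no array with the treated change. In controls 168 miRNAs changed from day 9 to day 14 (54.7%), 96 of them higher and 72 lower. Of the 205 changed in treated cells, 80 rose in both, 54 fell in both, 63 passed in treated cells only (23 higher, 40 lower) and 8 went in opposite directions. The difference between the treated and the control change was called for 101 miRNAs (32.9%), 52 higher (16.9%) and 49 lower (16.0%) in treated cells. This split moved with the scaling: it was 56 higher and 25 lower with the 75th percentile over all mouse probes, and 21 higher and 79 lower with the total gene signal. All controls lay on slide 2 and 5 of 6 treated arrays on slide 1. The control change was thus taken on slide 2, and the treated change on slide 1 apart from day 14 replicate 3. An effect of slide on the size of a change cannot be told apart from that of treatment here.

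**Figure D5:**
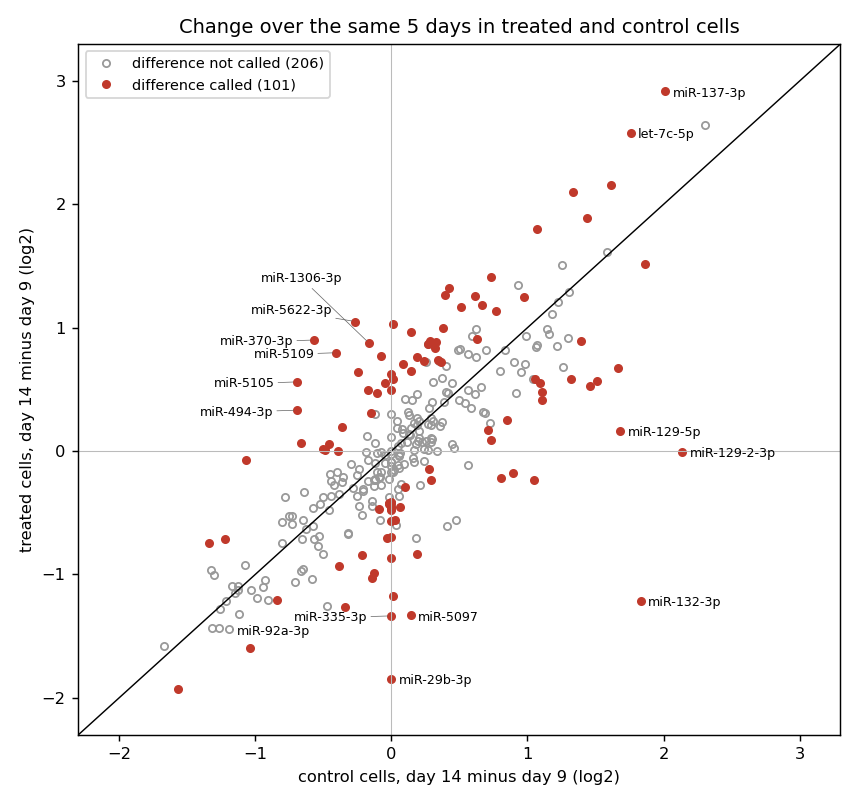
Change from day 9 to day 14 in treated cells (y axis) against the same change in control cells (x axis), both in log2 scaled signal, for 307 miRNAs. Red points are the 101 miRNAs whose changes differed at an adjusted p below 0.05, open points are the other 206, and the diagonal marks equal change. miR-132-3p lies farthest from the diagonal, falling in treated cells and rising in controls.

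For let-7 the control change had a median of 1.43 with all 9 members higher, and the treated change was larger for 5 of them. Over all miRNAs 31.3% were higher in controls and 16.9% had a higher treated change. let-7c-5p rose by 2.58 in treated and 1.76 in control cells, a difference of 0.82 ± 0.16 (SE, limma adjusted p = 0.00149). At day 9 it had been lower in treated cells, at -0.82 to -0.72 but 0.18 to 0.50 in controls, and by day 14 the groups stood at 1.63 to 1.92 and 1.93 to 2.17. let-7b-5p rose by 2.64 and 2.30, and this difference of 0.34 did not pass the test (adjusted p = 0.13). miR-137-3p was above background on all control day 9 arrays (-3.09, -2.71 and -2.97) and rose by 2.01 there.

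The miR-17-92 family also fell in controls, with 13 of 16 called lower (23.5% over all miRNAs) and a median of -1.03. The difference between treated and control change was called for 2 of the 16, both lower (16.0% over all miRNAs). It did not pass for miR-92a-3p (-0.25, adjusted p = 0.11). miR-363-3p fell more in treated cells (-0.36, adjusted p = 0.015), but it reached the floor there, which bounds this difference.

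Of the 22 neuronal miRNAs, 14 rose in treated cells and 19 in controls, where the median was 1.05. Over all miRNAs 35.5% rose in treated cells and 31.3% in controls. The treated change was called lower than the control change for 10 and higher for 3, where the shares over all miRNAs were 16.0% and 16.9%. miR-124-3p (0.93 and 0.99) and miR-9-3p (1.29 and 1.31) did not pass the test of the difference (adjusted p = 0.73 and 0.96). miR-138-5p rose by 1.51 in controls (difference -0.94, adjusted p = 1.3e-04), miR-128-3p by 0.85 (difference -0.60, adjusted p = 0.002) and miR-7a-5p by 1.32 (difference -0.74, adjusted p = 0.006). Only 6 of the 15 arrays had miR-138-5p above background, 0 of them at treated day 9 and 3 at treated day 14, so the floor limits its difference. At day 14 the miR-124-3p arrays stood at 2.17 to 2.35 in treated and 3.2 to 3.40 in control cells.

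The 6 largest differences in the lower direction began with miR-132-3p. In controls it climbed from -3.56, -4.04 and -4.13 to -2.24, -1.96 and -2.02 while it fell in treated cells, a difference of -3.05 ± 0.18 (SE, limma adjusted p = 6.5e-08). miR-129-2-3p rose by 2.14 in controls, from -3.07, -3.09 and -3.09 to -1.11, -0.75 and -0.98, whereas treated cells stood at -1.84, -1.76 and -1.72 on day 9 and at -1.82, -1.74 and -1.78 on day 14. miR-129-5p emerged from below background in both, to -2.80, -2.38 and -2.66 in control cells at day 14. In treated cells it was above background on all 3 day 14 arrays but near the floor, at -4.23, -4.03 and -4.13. For miR-29b-3p and miR-335-3p the control arrays were below background on both days, so the difference is that of the treated fall. miR-5097 fell in treated cells and changed by 0.15 in controls.

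The 6 largest differences in the higher direction were of miRNAs that rose in treated and fell in control cells, where miR-1306-3p was at the threshold (adjusted p = 0.05). miR-370-3p went down in controls from -2.20, -1.86 and -1.99 to -2.27, -2.87 and -2.62, so the difference was 1.47 ± 0.21 (SE, limma adjusted p = 1.3e-04). miR-5622-3p rose from 1.18, 1.04 and 1.1 to 2.13, 2.16 and 2.18 in treated cells and went from 2.09, 1.97 and 1.86 to 1.74, 1.71 and 1.68 in controls. miR-5109, miR-5105, miR-1306-3p and miR-494-3p showed the same pattern, with treated changes of 0.80, 0.56, 0.87 and 0.33. The control changes of these 4 were -0.40, -0.70, -0.16 and -0.69.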

How the data were processed

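RNA of 15 samples was hybridised to single-colour (Cy3) Agilent mouse miRNA arrays, release 18. The spot signals used are intensity, background-subtracted but not normalized between arrays, per the file headers of Feature Extraction 11.0.1.1. Other values, per the file headers, were the flags for detection over background, saturation and outliers. The deposited value table is linear intensity too: in 14 columns 73.3% to 83.8% of probes matched that array's scanner mean within 0.1%. Its medians were 0.443, 0.546 and 0.384 (treated day 9), 0.697, 0.697 and 0.253 (treated day 14), 0.104, 0.217 and 0.0505 (day 5), -0.0248, 0.0967 and 0.212 (control day 9) and 0.222, 0.260 and 0.433 (control day 14). Per the submitters' processing notes limma 3.20.9 was used, with its role not given in the sources used here.

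Here spots of a probe were averaged without outliers, scaled, floored and put on the log2 scale. Detection meant flags on 50% or more of the spots, and a miRNA took its brightest probe. One limma 3.58.1 model (R 4.3.3) held the 5 groups, with 10 residual and 3.10 prior degrees of freedom. Tests were two-sided with Benjamini-Hochberg adjustment over 307 miRNAs (36 hairpins for arms) at 0.05. "At least" folds set the detected day against the lowest signal above background on each array of the other day. The code was tested on simulated data. Arrays give no counting depth, so their number limits the precision.

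The comparison, lists and tests were chosen with earlier results of these data known. Named are the 12 largest called increases and decreases whose days do not overlap, the 6 largest called differences from controls in each direction, the 4 largest called arm differences, and members of the lists, seed families and clusters. Alternatives covered scaling, background correction (normexp, offset 50, on median spot and background signals, since mean signals were not used here), floor, filter, probe summary, slide and replicate blocks, the deposited table and leaving out each replicate. Replicate numbers did not pair the samples: same-numbered deviations correlated at 0.104, 0.0575 and -0.0911. Plots used matplotlib 3.10.9 (Python 3.11.15).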

Additional observations from a re-analysis of the deposited data

Results flagged for a closer look

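For 12 miRNAs the change from day 9 to day 14 differed between treated and control cells by the limma test of the difference itself, and these are the largest in each direction. In treated cells the change was lower by the following log2 values: miR-132-3p by -3.05, miR-129-2-3p by -2.14, miR-29b-3p by -1.85, miR-129-5p by -1.52, miR-5097 by -1.48 and miR-335-3p by -1.34. It was higher by 1.47 for miR-370-3p, 1.31 for miR-5622-3p, 1.26 for miR-5105, 1.20 for miR-5109, 1.04 for miR-1306-3p and 1.02 for miR-494-3p.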

How the results depend on the processing

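The count of changed miRNAs was 205 and stayed between 190 and 196 without any treated replicate (199 to 210 without any control replicate), with 188 of the 205 calls kept when day 14 replicate 3 was left out. Slide as a fixed block gave 190 calls, 188 of them shared, just as leaving out day 14 replicate 3 did. Only that array lies on another slide than the rest of its group, so these are the same check and not a separate one of slide. Slide as a random block gave 205 calls. The replicate number as a block gave 198 calls (109 higher), and the numbers showed no pairing of the samples. Of the miRNAs recomputed, the block ended the calls of miR-302a-3p (-0.28, adjusted p = 0.0577), miR-466c-5p (-0.41, 0.0551) and miR-467d-3p (-0.59, 0.0509) and changed no other. The normexp background correction called 130 miRNAs, 63 of them higher, and 34 differences from controls (17 higher, 17 lower). A floor 4 times higher called 135 of 248, with 61 lower, and 33 differences from controls that were higher, and it took away the difference of miR-129-5p and miR-335-3p, which then lay at the floor. It also ended every call of the pluripotency list. Of the differences from controls, 25 were lower with the 75th percentile over all mouse probes, 21 higher and 79 lower with the total gene signal, and 33 higher with no filter. Changes reversed with normexp for 5 dim miRNAs: miR-138-5p (-0.00866), miR-129-1-3p (-0.0213), miR-326-3p (-0.068), miR-488-3p (-0.075) and miR-98-5p (-0.00831). The cause of these shifts was not tested. Signal near background limits dim miRNAs, whose changes depend on the floor and the background correction.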
